A study of Mus musculus and Rattus norvegicus with 96 samples.

Results

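Rn45s, Lars2, Mir6236 and Gm20594 are 4 of the 24543 rows of the mouse liver count table. They were picked by name, because their counts were high in fixed liver, as the loci that take up reads of ribosomal RNA (rRNA) or of sequence resembling it. All 4 were among the 13370 rows kept by the filter on low counts. The contrasts between preparations therefore chose them and are given as a description with no test, while phenobarbital treatment and the relations among mice within a preparation were not used in the choice.

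Liver came from 12 male B6C3F1 mice of 10 to 11 weeks, of which 6 drank water with 600 ppm phenobarbital for 7 days (PB) and 6 drank the vehicle (Con). Each liver was prepared in 4 ways, so that 48 libraries fell into 8 groups of n = 6. FR was flash frozen. FR>OH was frozen, then held in ethanol and embedded in paraffin. FR>FFPE was frozen, then held in neutral buffered formalin and embedded, and FFPE went fresh into the same formalin before embedding. RNA of FR was extracted with RNAzol and RNA of the 3 block preparations with a kit for fixed tissue that includes a heating step, and block libraries had a shortened fragmentation, so extraction and fragmentation cannot be told apart from the comparison with FR. Every library was made from total RNA after probe-based removal of rRNA, and treatment labels were checked with Cyp2b10, the standard phenobarbital response gene, which was higher in PB by 10.7 to 12.4 on the log2 scale in the 4 preparations.

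Most RNA of a cell is rRNA. RNA polymerase I copies a long precursor from the repeated rDNA units in the nucleolus, and the precursor is cut into the 18S, 5.8S and 28S rRNA of the cytoplasmic ribosome. Mitochondria carry their own 12S and 16S rRNA genes. Because rRNA would otherwise fill a total RNA library, it is removed with probes before sequencing, and what remains is counted at whichever annotated locus carries matching bases. Rn45s is the row of the precursor. Lars2 encodes the leucyl-tRNA synthetase of mitochondria, the enzyme that joins leucine to its tRNA. Mir6236 is annotated as a microRNA and Gm20594 as a predicted gene.

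The positions are those of the count table, whose coordinates matched GRCm38 in the reference tables for the 3 loci listed there. Rn45s lies on the plus strand at chr17:39842997-39848829. Reference transcripts cover 98.8% of these 5833 bases. On the plus strand they are Gm26917 (chr17:39843013-39846341) and Gm42418 (chr17:39846958-39848788), and on the minus strand AY036118 (chr17:39847113-39848035) and CT010467.1, which is annotated as rRNA (chr17:39846353-39848201). RefSeq places the 18S rRNA related locus Rn18s-rs5 at chr17:39846354-39848202, over nearly the same bases as CT010467.1. None of these has a row of its own in the count table. The first 60 bases of Gm42418 are shown because they lie inside CT010467.1, the transcript annotated as rRNA. Both transcripts read the same genomic bases from opposite strands, so their match follows from the overlap.

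Gm42418: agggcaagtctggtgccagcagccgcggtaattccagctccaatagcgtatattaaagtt

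Lars2 runs along chr9:123366927-123462675 on the plus strand, and its annotated transcript has 21 exons and 3894 bases, with coding bases 200 to 2905. Mir6236 (chromosome 9, plus strand, 123 bases) and Gm20594 (chr6:79818031-79818364, plus strand, 334 bases) are short loci. Annotated transcripts of Lars2, Mir6236 and Gm20594 shared no stretch of 50 bases, the read length, with the transcripts in the Rn45s interval on either strand, and the longest exact run was 13 bases. The sequence of the 28S part of the precursor was not used here, so this comparison covers the interval on chromosome 17 alone.

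Gm20594 held sequence of a mitochondrial rRNA. Its transcript shared an exact run of 65 bases with mt-Rnr2, the 16S rRNA gene of the mitochondrial chromosome, at bases 1009 to 1073 of the 1582 bases of mt-Rnr2. Of the 400 windows of 50 bases in the transcript, 16 were also found in mt-Rnr2, so a read from either gene can match both there. This GENCODE transcript has 449 bases, more than the 334 of the counted locus, which holds all of its coding bases. Over the 111 coding bases (chr6:79818251-79818361, plus strand, GRCm38, GENCODE M21), 96 equalled mt-Rnr2 and 15 differed in an ungapped alignment. The coding bases are shown because they carry this match, with the run of 65 bases in capitals. The count table has no row for mt-Rnr1 or mt-Rnr2.

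Gm20594: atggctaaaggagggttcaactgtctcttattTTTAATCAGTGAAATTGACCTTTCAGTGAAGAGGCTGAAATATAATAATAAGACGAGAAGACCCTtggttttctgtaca

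Mir6236 shared 25 bases or more with no other annotated gene. The libraries were made from fragments of total RNA, so counts on this row are of reads on the precursor locus and were not a measure of the mature microRNA.

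Lars2 shared a run of 52 bases in its 3′ untranslated region (transcript bases 3278 to 3329) with Gm15564, a gene on chromosome 16, and a run of 41 bases (3172 to 3212) with AA474408 on chromosome 7. Neither gene has a row in the count table. The first 30 bases of the longer run, at chr9:123462048-123462077 on the plus strand (GRCm38), mark the part of Lars2 that is not unique to it.

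Lars2: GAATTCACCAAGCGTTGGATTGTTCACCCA

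Levels are given as CPM, the counts of a row per 1000000 counts of that library over all rows. Rn45s was lowest in FR, at 4206, 6040 and 13055.5 CPM (lowest, median and highest of 12 mice). In FR>FFPE it ran from 22316 through 31278 to 51274 CPM, and in FR>OH from 24574 through 49121 to 68196 CPM. FFPE held 81270, 102243 and 127578 CPM. The ranges of FR and FFPE overlapped with no other preparation, whereas those of FR>OH and FR>FFPE overlapped each other. Means were 6767 ± 2429 in FR, 48738 ± 11779.7 in FR>OH, 32365 ± 7981 in FR>FFPE and 105109 ± 13788 CPM in FFPE (SD, n = 12). By share of counts, with no correction for length, Rn45s was the 20th row of the table in FR and the 1st in each block preparation.

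The Lars2 row, at the locus of the mitochondrial synthetase, held 67.2, 83.5 and 266 CPM in FR (lowest, median and highest of 12 mice). It held 449, 575 and 839 CPM in FR>OH and 444, 644 and 1044 CPM in FR>FFPE. In FFPE the values were 2161, 2665 and 3588 CPM, so that the lowest FFPE library was 2.07 times the highest of the 36 others. Mean levels were 106 ± 57.3 in FR, 611 ± 135 in FR>OH, 641 ± 156 in FR>FFPE and 2697 ± 419.8 CPM in FFPE (SD, n = 12). The 2 middle preparations differed little, with a log2 change of −0.07 ± 0.17 (SE) from FR>FFPE to FR>OH. Counts of Rn45s, Mir6236 and Gm20594 were whole numbers in all 48 libraries. Those of Lars2 lay up to 0.02 from a whole number in FR and up to 0.45 in FR>OH, 0.38 in FR>FFPE and 0.50 in FFPE. A count that is not whole can arise where the authors' estimation divided reads between transcripts of different rows.

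Mir6236 was the row with the fewest counts of the 4 and the widest relative change from FR to FFPE. FR libraries held 1.44, 6.21 and 28.9 CPM (lowest, median and highest), from 17 to 362 counts, so its level in FR rests on few reads. It stood at 17.3, 37.1 and 53.3 CPM in FR>OH and at 24.3, 31.3 and 60.1 CPM in FR>FFPE. FFPE libraries held 204 to 435 CPM, and the lowest was 3.39 times the highest of the 36 others. The mean was 7.62 ± 7.30 CPM in FR, 37.4 ± 11.0 in FR>OH, 34.9 ± 11.3 in FR>FFPE and 319 ± 66.7 in FFPE (SD, n = 12). One FR library, PB mouse 75C, overlapped FR>OH and FR>FFPE, and the other 11 FR libraries were at 9.31 CPM or less.

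Gm20594, the locus with the mt-Rnr2 sequence, had the smallest relative change of the 4 in each block preparation. It held 2575, 3784 and 4602 CPM in FR (lowest, median and highest of 12 mice) and 3564, 6133 and 10669 CPM in FR>OH. It held 4782, 8019 and 10999 CPM in FR>FFPE and 11472, 14741 and 21589.6 CPM in FFPE. FR>OH overlapped FR, and FFPE exceeded every other library by a narrow margin, its lowest library being 1.04 times the highest of the others. Means were 3541 ± 657 in FR, 6535 ± 1712 in FR>OH, 7979.7 ± 1723 in FR>FFPE and 15615.5 ± 3497 CPM in FFPE (SD, n = 12).

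**Figure D1:**
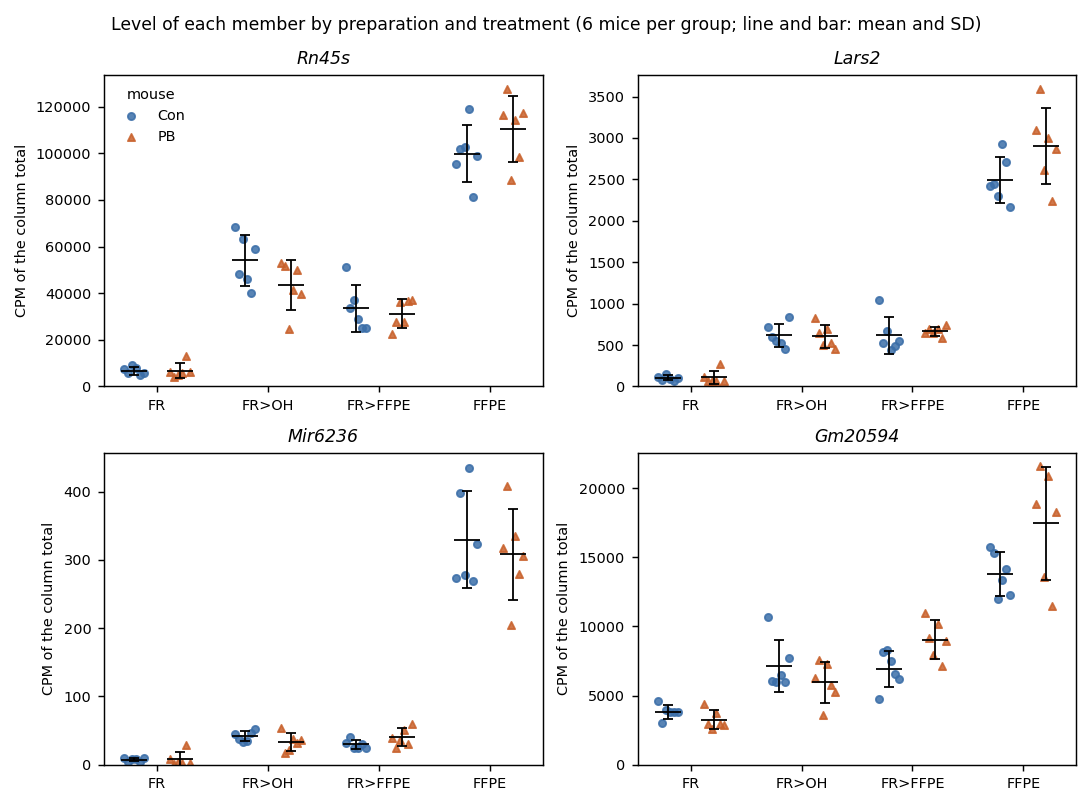
CPM of the column total (linear axes) for Rn45s, Lars2, Mir6236 and Gm20594 in the 8 groups, with 1 point per mouse (circles Con, triangles PB) and the mean and SD of each group of 6. FFPE libraries lay above all others for each locus, from 81270 CPM for Rn45s and from 204 CPM for Mir6236.

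All 12 FFPE libraries exceeded all 36 other libraries in 12 of the 13370 rows tested (0.0898%), and all 4 loci were among these 12. The other 8 were Slc25a23, Sema4g, Nacc1, Baz2a, Ankrd52, Hcfc1, Ddx17 and Ninj1, named after their values were seen. All 36 libraries from blocks exceeded all 12 FR libraries for Rn45s and Lars2, against 4.9% of all rows, and not for Mir6236 or Gm20594. All 12 FFPE exceeded all 12 FR libraries for the 4 loci, against 16.1% of rows. Since the choice of the loci used these contrasts, nothing is read from the counts.

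The divisor mattered for this separation. Per 1000000 total reads of a library, with reads outside genes included, Rn45s in FFPE started at 21021, below the highest FR>OH library at 23360, and Gm20594 in FFPE started at 2838, below the highest FR>FFPE library at 4102. Lars2 (545 and above in FFPE, at most 331 elsewhere) and Mir6236 (56.1 and above in FFPE, at most 23.1 elsewhere) remained apart, and they were the 2 rows of 13370 (0.015%) to do so. On this read scale FFPE still exceeded FR in every library for all 4 loci, against 0.681% of rows, and all block libraries exceeded FR for Rn45s and Lars2, against 0.583% of rows.

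As log2 fold changes of the edgeR fit from FR to FFPE, averaged over Con and PB, Gm20594 was higher by 2.14 ± 0.12 (SE), Rn45s by 3.96 ± 0.17, Lars2 by 4.67 ± 0.19 and Mir6236 by 5.39 ± 0.29. From FR to FR>FFPE the log2 changes were 1.16 ± 0.12 for Gm20594, 2.18 ± 0.26 for Mir6236, 2.26 ± 0.15 for Rn45s and 2.60 ± 0.18 for Lars2. From FR to FR>OH they were 0.88 ± 0.12, 2.29 ± 0.26, 2.84 ± 0.16 and 2.53 ± 0.18 in the same order of loci. Between the fixed preparations, FFPE stood above FR>FFPE by 0.97 ± 0.12 for Gm20594, 1.70 ± 0.15 for Rn45s, 2.07 ± 0.17 for Lars2 and 3.21 ± 0.25 for Mir6236 (log2), so that Mir6236 and Lars2 moved furthest between these 2 formalin preparations. From FR>FFPE to FR>OH the log2 change was 0.58 ± 0.15 for Rn45s, 0.11 ± 0.24 for Mir6236, −0.07 ± 0.17 for Lars2 and −0.28 ± 0.12 for Gm20594.

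Each liver gave all 4 preparations, so levels were also compared within a mouse. In 12 of 12 mice each block preparation held more of all 4 loci than FR, and in 12 of 12 FFPE held more than both FR>OH and FR>FFPE. The choice of the loci used these contrasts, so nothing is read from these counts. The share of all rows with this order within mice is not given here. A stricter order, every FFPE library above every FR library, held in 16.1% of rows. The ratio of FFPE to FR for Rn45s ran from 7.53 in PB mouse 75C to 30.3 in PB mouse 18D, with a median of 17.6. For Lars2 it ran from 8.43 to 52.3 and for Mir6236 from 9.69 to 283, with the same 2 mice at the ends. Gm20594 spanned 3.03 (Con mouse 8A) to 7.41 (PB mouse 18D). FR>FFPE exceeded FR>OH in 1 of 12 mice for Rn45s, 8 for Lars2, 5 for Mir6236 and 10 for Gm20594, so no common order held between these preparations. On the read scale the exceptions to the order of FR and blocks were 1 mouse for Mir6236 in FR>OH, 1 mouse for Mir6236 and 1 for Gm20594 in FR>FFPE, and 1 mouse for Gm20594 between FFPE and FR>FFPE.

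**Figure D2:**
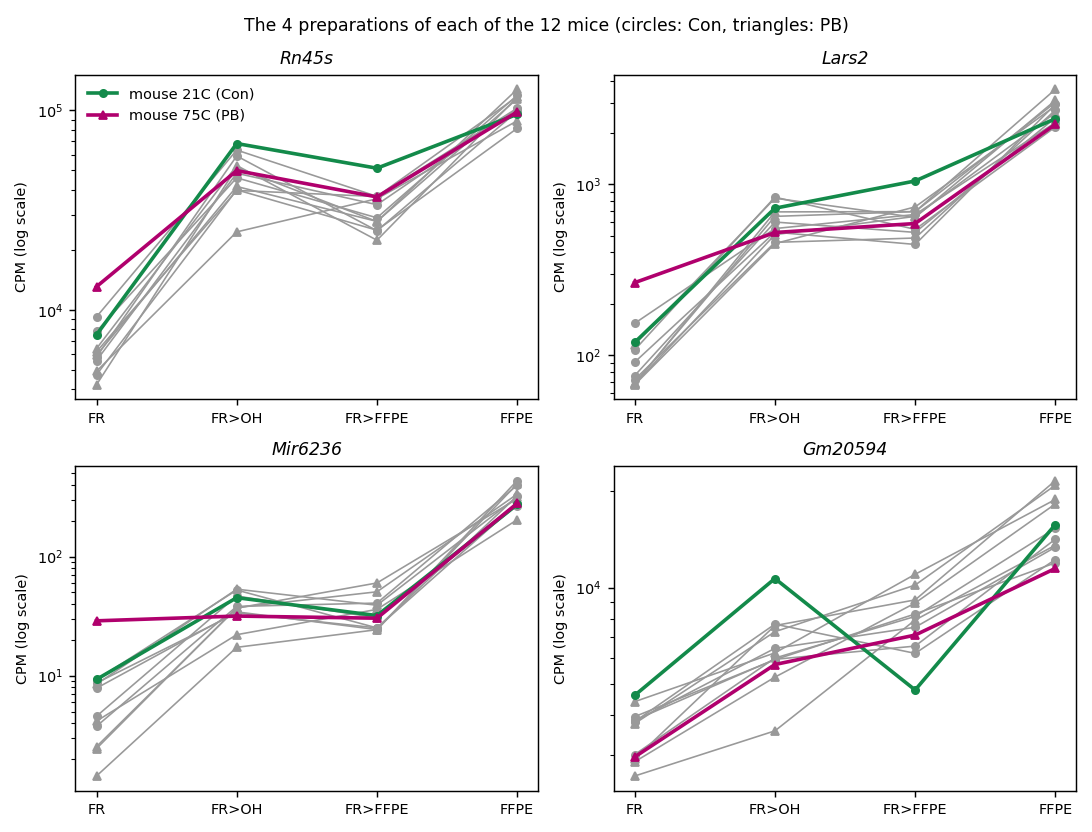
CPM on a log axis for the 4 preparations of each of the 12 mice, joined by lines (circles Con, triangles PB), with PB mouse 75C and Con mouse 21C in colour. Every line is higher at FFPE than at FR, and mouse 75C starts highest in FR for Rn45s (13055.5 CPM), Lars2 (266 CPM) and Mir6236 (28.9 CPM) but not for Gm20594 (2954 CPM).

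Library 75C of FR PB stood apart from its group for Rn45s, Lars2 and Mir6236. Con mouse 21C did so for Lars2 in FR>FFPE and for Gm20594 in FR>OH alone. FR PB 75C held 13055.5 CPM of Rn45s where the other 5 of its group held 4206 to 6384. Without this library the PB minus Con change of Mir6236 in FR moved from 0.15 to −0.91 (log2), with an adjusted p of 0.0539 in edgeR's quasi-likelihood test. The ranges given for FR above include it. Among the other 11 FR libraries the highest held 9216 CPM of Rn45s, 154 CPM of Lars2 and 9.31 CPM of Mir6236, and all 36 block libraries, at 17.3 CPM and above, then lay above them for Mir6236 too. The share of all rows with that order is not given here.

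Ratios between loci within a library do not depend on its total. They are compared across preparations, not between loci, since they are not corrected for length. Lars2 stood at 15.2 ± 2.99 counts per 1000 Rn45s counts in FR, 13.0 ± 3.28 in FR>OH, 20.2 ± 4.19 in FR>FFPE and 25.8 ± 3.31 in FFPE (SD, n = 12). FFPE was above FR in 12 of 12 mice, FR>FFPE in 11 and FR>OH in 3. Mir6236 stood at 0.999 ± 0.543 counts per 1000 Rn45s counts in FR, 0.791 ± 0.225 in FR>OH, 1.12 ± 0.411 in FR>FFPE and 3.03 ± 0.454 in FFPE. All FFPE libraries (2.30 to 3.90) were above all others, of which the highest was FR PB 75C at 2.21. Since the choice of the loci used these preparations, nothing is read from this separation or from the counts of mice for the 3 ratios. Gm20594 went the other way, with 565 ± 154 counts per 1000 Rn45s counts in FR, 136 ± 21.4 in FR>OH, 265 ± 98.4 in FR>FFPE and 148 ± 24.8 in FFPE, and it was lower in each block preparation than in FR in 12 of 12 mice.

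**Figure D3:**
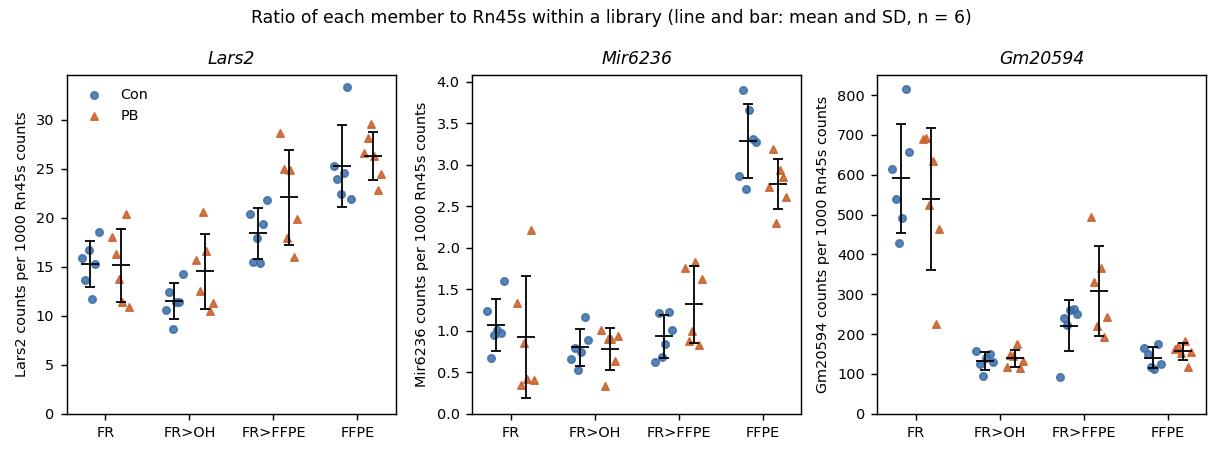
Counts of Lars2, Mir6236 and Gm20594 per 1000 Rn45s counts in the same library, by preparation, with 1 point per mouse (circles Con, triangles PB) and the mean and SD of each group of 6 on linear axes. Mir6236 separates FFPE (2.30 and above) from the rest, and Gm20594 has its highest ratios in FR.

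The 4 loci together held 0.719% to 1.63% of all counts in FR, 2.87% to 7.96% in FR>OH, 3.17% to 5.71% in FR>FFPE and 9.84% to 15.3% in FFPE. Because CPM values share one total, this weight touches every other gene. With the 4 loci left out of the library size, the edgeR fit of FFPE against FR gave 2744 genes past both criteria (2630 higher, 114 lower) in place of 1995 (1737 higher, 258 lower), and the median log2 change over all genes went from 0.32 to 0.50. The split turned with total reads in the divisor, to 131 higher and 3566 lower, with a median of −0.63, and with TMM scaling it was 891 higher and 669 lower, with a median of 0.04. The log2 changes of the loci given above are on the first of these scales, with its median of 0.32.

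**Figure D4:**
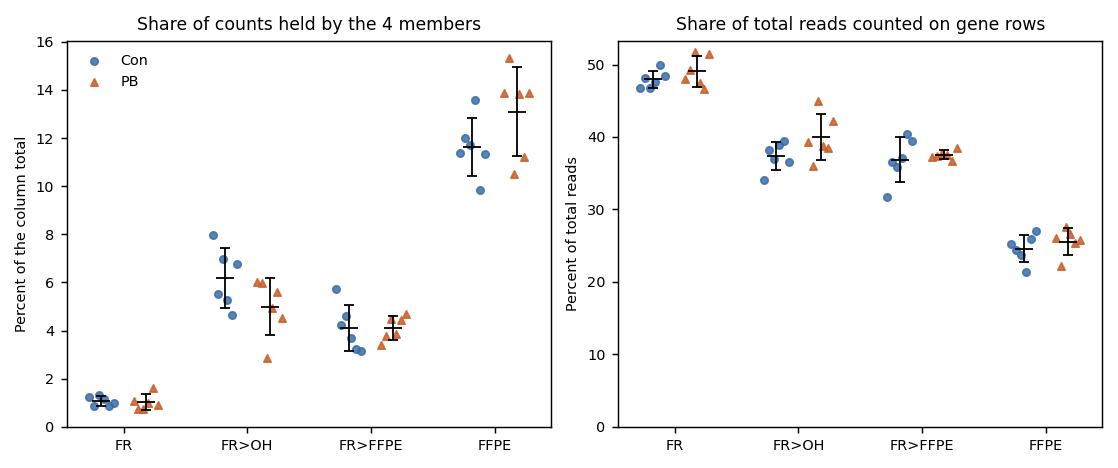
Left, the percent of a library's counts held by the 4 loci, and right, the percent of its total reads counted on gene rows, by preparation, with 1 point per mouse (circles Con, triangles PB) and the mean and SD of each group of 6. FFPE had the highest share held by the loci (9.84% to 15.3%) and the lowest share of reads on genes (21.4% to 27.5%).

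Depth and the levels of some cell type markers also differed between preparations. To the nearest 1000, libraries held 11737000 to 13703000 counts in FR and 4953000 to 6760000 in FFPE, with FR>OH and FR>FFPE between 5535000 and 11539000, from 17458000 to 28315000 total reads, of which 46.6% to 51.8% fell on genes in FR and 21.4% to 27.5% in FFPE. The 5 hepatocyte markers Alb, Ttr, Apoa1, Serpina1a and Cyp2e1 were detected in every preparation and summed to 43473 to 90274 CPM in FR and 22418.5 to 39895 CPM in FFPE. In bulk tissue, fewer cells of a type and less RNA per cell cannot be told apart. Both smooth muscle markers, Myh11 and Acta2, summed to 3.99 to 7.78 CPM in FR and 6.26 to 21.4 CPM in FFPE, and the 5 markers of blood cells to 156 to 482 and 81.9 to 182 CPM. The 5 endothelial markers spanned 264 to 342 CPM in FR and 267 to 342 in FFPE, the 5 Kupffer cell markers 209 to 515 and 135 to 368, the 5 markers of stellate cells and fibroblasts 298 to 432 and 196 to 299.6, and the 4 of cholangiocytes 4.75 to 15.2 and 8.79 to 24.5. No marker was at 0 in every library. The part of these differences in the levels of the loci was not tested. Library titles carry a number after the letter L whose meaning is not given in the sources used here. This L number followed the preparations closely, and in FR>FFPE it also split Con from PB. Only L number 2 held FFPE and FR libraries of the same treatment (2 FFPE PB and 2 FR PB), and the log2 changes there were 4.35 for Rn45s, 4.80 for Lars2, 5.87 for Mir6236 and 2.02 for Gm20594.

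Phenobarbital was the contrast that had no part in the choice of the loci. In FR, Rn45s held a mean of 6761 ± 1681 CPM in Con and 6773 ± 3186 in PB (SD, n = 6), and the groups overlapped. In FFPE it held 99845 ± 12204 CPM in Con and 110374 ± 14239 in PB, again with overlap. Lars2 in FFPE stood at 2493 ± 282 CPM in Con and 2902 ± 456 in PB, and Mir6236 at 329 ± 71 and 308 ± 66.8 CPM. None of the 4 loci passed the criteria for PB against Con in any preparation by edgeR, with 1 of the 16 values at an unadjusted p under 0.05, or by DESeq2. The share of all rows that did was 2% in FR, 2.42% in FR>OH, 1.87% in FR>FFPE and 1.92% in FFPE.

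The 95% intervals of these differences, from the SE and a normal quantile, show what size remained possible. For Rn45s the log2 change from Con to PB lay between −0.41 and 0.41 in FR, −0.73 and 0.09 in FR>OH, −0.51 and 0.31 in FR>FFPE, and −0.27 and 0.56 in FFPE. For Lars2 in the 4 preparations the intervals spanned −0.48 to 0.68 in all, and a 2-fold change in either direction lay outside each. Mir6236 was less certain, with intervals that took in a 2-fold decrease in FR>OH and a 2-fold increase in FR>FFPE, where the upper end was 1.11. In FR its interval ran from −0.61 to 0.91, but this does not exclude a 2-fold change there. The fit shares the spread of a row among all groups, whereas the SD of log2 CPM in FR was 1.32 in PB and 0.49 in Con. The difference of mean log2 CPM in FR was −0.41, where the fit gave 0.15. That fitted change depended on the highest FR PB library, at 28.9 CPM where the next held 8.48.

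Gm20594 had the largest differences by treatment relative to their error. It held 6911 ± 1326 CPM in Con and 9048 ± 1427 in PB in FR>FFPE (SD, n = 6), and 13795 ± 1566 and 17436 ± 4061 CPM in FFPE. The groups overlapped in both. In FR>FFPE the log2 change was 0.39 ± 0.17 (SE) with an adjusted p of 0.18 in edgeR's quasi-likelihood test (unadjusted 0.025), and in FFPE 0.34 ± 0.17 with an adjusted p of 0.26. An exact two-sided permutation test of log2 CPM, 6 against 6 mice, gave p = 0.026 for FR>FFPE, the only 1 of the 16 such tests of the loci under 0.05, with no adjustment. In FR>FFPE all 6 Con libraries carried L number 3 and all 6 PB libraries L number 4. Treatment and that number cannot be told apart there. The change in FR was −0.24 ± 0.17 (adjusted p = 0.43) and in FR>OH −0.26 ± 0.17 (adjusted p = 0.35), so its sign differed between preparations, although no value passed the test.

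That difference in sign was itself tested as an interaction, with the same limit from the L number in FR>FFPE. The PB change of Gm20594 was larger in FR>FFPE than in FR by 0.63 ± 0.24 (log2, edgeR's quasi-likelihood test, unadjusted p = 0.011) and larger in FFPE than in FR by 0.58 ± 0.24 (unadjusted p = 0.018), and the adjusted p over all rows was 1.0 in both. With the mouse as a block the differences were 0.62 ± 0.16 (adjusted p = 0.28) and 0.57 ± 0.16 (adjusted p = 0.28). No locus passed any of the 3 interaction tests, and 0 of the 13370 rows (0%) did in FFPE, FR>FFPE or FR>OH by edgeR or by DESeq2. At an unadjusted p under 0.05, edgeR had 305 rows for FR>OH, 288 for FR>FFPE and 463 for FFPE, and DESeq2 322, 315 and 463. With the mouse as a block, edgeR called 3 rows for FR>OH, 0 for FR>FFPE and 1 for FFPE, and 1116, 1164 and 1143 rows had an unadjusted p under 0.05.

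**Figure D5:**
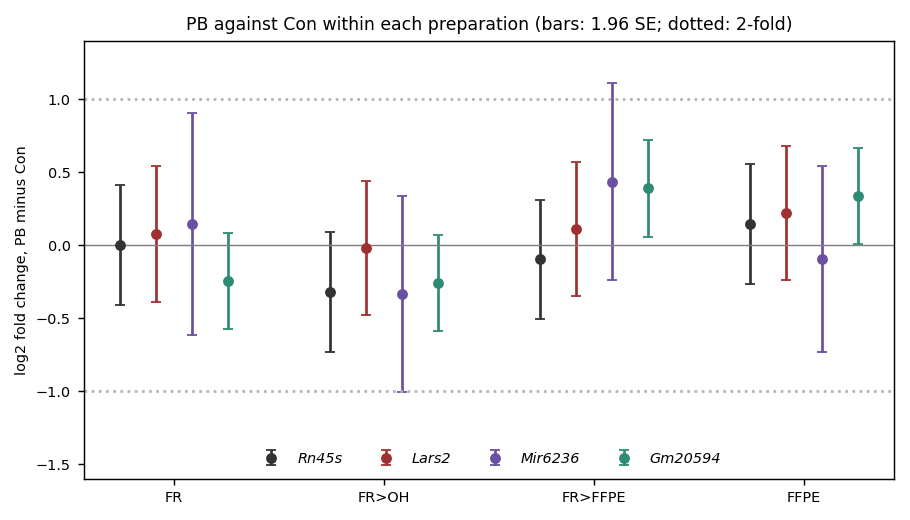
Log2 fold change from Con to PB for the 4 loci in each preparation (points), with bars of the 95% interval from the edgeR fit over 48 libraries and dotted lines at a 2-fold change. All intervals include 0 except those of Gm20594 in FR>FFPE (0.06 to 0.72) and FFPE (0.01 to 0.67), neither of which passed after adjustment over all rows. The intervals are SE times a normal quantile and are slightly narrower than the quasi-likelihood test implies, by which the FFPE value did not pass before adjustment either.

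Whether the loci moved together from mouse to mouse was asked within each preparation, over its 12 mice, on log2 CPM, in 24 pairs of loci and preparations with permutation tests of 100000 resamples. By Pearson's r, 6 of the 24 pairs had an adjusted p under 0.05, and by Spearman's rho 5. In FR, Rn45s correlated with Lars2 (r = 0.89, adjusted p = 0.0025 by permutation; rho = 0.69, adjusted p = 0.062) and with Mir6236 (r = 0.84, adjusted p = 0.0056; rho = 0.67, adjusted p = 0.070). Lars2 correlated with Mir6236 (r = 0.92, adjusted p = 0.00024 by permutation; rho = 0.87, adjusted p = 0.013). Without the 2 libraries farthest from the median of the first locus, 75C among them, r was 0.63, 0.66 and 0.89, and without 75C alone it was 0.77, 0.69 and 0.85. Gm20594 in FR was not found to correlate with Rn45s (r = 0.20), Lars2 (0.24) or Mir6236 (0.31), and these values were 0.58, 0.72 and 0.71 without 75C.

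Which pairs passed varied between preparations, although Rn45s with Mir6236 passed by r on log2 CPM in both FR and FFPE. In FFPE, Rn45s correlated with Mir6236 (r = 0.72, adjusted p = 0.035 by permutation; rho = 0.79, adjusted p = 0.022; r = 0.69 without 2 libraries), which did not pass on the read scale (r = 0.49, adjusted p = 0.26), and Lars2 with Gm20594 (r = 0.83, adjusted p = 0.0056; rho = 0.80, adjusted p = 0.018; r = 0.74 without 2 libraries). In FR>OH, Rn45s correlated with Gm20594 (r = 0.81, adjusted p = 0.017 by permutation; rho = 0.61, adjusted p = 0.094), but r was 0.31 without the 2 libraries farthest from the median of Rn45s, PB mouse 20B and Con mouse 21C, so this relation rests on those libraries, and it did not pass on the read scale (r = 0.67, adjusted p = 0.11). By rank alone, Lars2 correlated in FR>OH with Rn45s (rho = 0.73, adjusted p = 0.045 by permutation; r = 0.55, adjusted p = 0.14) and with Gm20594 (rho = 0.81, adjusted p = 0.018; r = 0.61, adjusted p = 0.087). Neither passed on the read scale (rho = 0.36 and 0.62, adjusted permutation p = 0.47 and 0.18). On deviations from the Con and PB means neither passed by rho (adjusted permutation p = 0.068 for both). In FR>FFPE no pair passed on log2 CPM. On deviations from the Con and PB means, Rn45s and Lars2 passed there by r (r = 0.68, adjusted p = 0.045 by permutation; rho = 0.55, adjusted p = 0.14), with r = 0.45 without 2 libraries. On log2 CPM, Rn45s and Gm20594 in FR>FFPE had r = −0.50, which was 0.29 without the libraries of Con mouse 21C and PB mouse 18B. The values of a pair share the library total, and the differences between preparations in r were not tested.

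No relation was found between the levels of a locus in 2 preparations of the same mouse. Of 24 correlations of the same locus between 2 preparations of the 12 mice, none had an adjusted permutation p under 0.05, and the lowest was 0.49. For Rn45s the 6 values of r lay between −0.19 and 0.49. Lars2 in FR and FFPE had r = −0.63 (unadjusted permutation p = 0.026), which was −0.19 without the 2 libraries farthest from the FR median.

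In FR, FR>OH and FR>FFPE, libraries with a smaller share of total reads on genes had more Rn45s. Pearson's r of Rn45s CPM with that share was −0.68 in FR (adjusted permutation p = 0.041; rho = −0.78, adjusted p = 0.020), −0.92 in FR>OH (0.00088; rho = −0.84, 0.020), −0.74 in FR>FFPE (0.038; rho = −0.57, 0.13) and −0.53 in FFPE (0.11; rho = −0.49, 0.19), over 16 relations and 12 mice each. Without the 2 libraries farthest from the median share, r was −0.86, −0.75, −0.36 and −0.13, so in FR>FFPE the relation rests on those libraries. Of the 16 relations 6 passed by r and 4 by rho. The other 3 by r were Lars2 in FR (−0.69), Mir6236 in FFPE (−0.70) and Gm20594 in FR>OH (−0.91). The share is the column total over total reads, and CPM has that total as its divisor, so both measures move with it. On the read scale, where this coupling is removed on one side, 2 of 16 relations passed, Rn45s in FR>OH (r = −0.85, adjusted permutation p = 0.010; rho = −0.76, adjusted p = 0.056) and Gm20594 in FR>OH (r = −0.84, adjusted p = 0.011; rho = −0.53, adjusted p = 0.25). Without the 2 libraries farthest from the median share these became −0.57 and −0.44, and by rho 0 of 16 passed.

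Among 12287 other rows of at least 1 CPM on average, those most like Rn45s across the 48 libraries, by Pearson's r of log2 CPM as a measure of likeness, were Slc25a23 (0.98), which encodes a mitochondrial carrier, Furin (0.98), a proprotein-cleaving protease, Maz (0.97), a zinc finger transcription factor, Rnf10 (0.97) and Prrc2a (0.97). Their range was far smaller than that of Rn45s, as Slc25a23 went from 158 ± 16.3 CPM in FR to 413 ± 22.4 in FFPE and Furin from 151 ± 20.4 to 437 ± 43.2 (SD, n = 12). On the same measure Lars2 was the 8th row for Rn45s (0.97), Mir6236 the 195th (0.92) and Gm20594 the 755th (0.86). On deviations from the 8 group means, which leave out preparation and treatment, the nearest rows were Furin (0.84), Tmem259 (0.83), Plxnb2 (0.81), a semaphorin receptor, Scaf1 (0.81) and Ppp1r37 (0.80), with Lars2 at 0.75, Mir6236 at 0.60 and Gm20594 at 0.24. Seen from Mir6236, Lars2 was the 1st of the 12287 rows on both measures (0.97 over libraries, 0.73 on deviations). Seen from Gm20594, Lars2 was the 2nd row over the 48 libraries (0.92) but the 3487th on deviations (0.25), so the high value over libraries came with the differences between groups. These values are descriptions over libraries that share preparation, depth and total.

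Few genes of the machinery that makes and processes rRNA, or of the other tRNA synthetases, were called between preparations. Most of all rows were not called either. A gene was called where it passed the study's thresholds, at least a 2-fold change and an adjusted p under 0.05, in Con and in PB in the same direction. Of 15 genes of RNA polymerase I transcription, none was called in any preparation, and their median log2 change from FR to FFPE was 0.21, beside 0.32 over all rows. With no threshold on fold, 5 of the 15 were higher and 2 lower in FFPE at an adjusted p under 0.05 in Con and in PB, with changes between −0.73 and 0.94 in the list (edgeR). Of the 16 mitochondrial synthetases other than Lars2, none passed in any preparation, with a median of 0.18 and a highest value of 0.65 in FFPE, beside 4.67 for Lars2, and with no threshold on fold 3 were higher and 2 lower in FFPE. Of 20 cytosolic synthetases, none passed, with a median of −0.19 in FFPE, and with no threshold on fold 1 was higher and 9 were lower. Over all rows 9.52% were called higher and 1.28% lower in FFPE, and with no threshold on fold 39.5% were higher and 11.7% lower. In FR>FFPE 3.96% of all rows were called higher and 0.0224% lower, and in FR>OH 2.51% and 0.0524%.

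Of 29 genes of rRNA processing, 2 were called higher and 1 lower in FFPE, none passed in FR>OH or FR>FFPE, and their median in FFPE was −0.02. With no threshold on fold, 4 were higher and 4 lower in FFPE, beside 39.5% and 11.7% of all rows. Gar1, a protein of the RNA particles that make pseudouridine, was higher by 1.22 ± 0.26 in Con and 1.43 ± 0.27 in PB (log2, SE; adjusted p = 9.6e-05 and 1.1e-05, edgeR), at 1.12 ± 0.332 CPM in FR and 2.85 ± 0.902 in FFPE (SD, n = 12). Tcof1, the nucleolar protein treacle, was higher by 1.10 ± 0.16 in Con and 1.08 ± 0.16 in PB (log2, SE). Nop10, a partner of Gar1, changed by −1.25 ± 0.11 in Con and −1.19 ± 0.11 in PB (log2, SE). On the read scale Gar1 held 0.546 ± 0.168 in FR and 0.712 ± 0.226 in FFPE and Tcof1 2.64 ± 0.461 and 2.92 ± 0.535, with overlap, whereas Nop10 held 18.5 ± 2.4 and 4.12 ± 0.673 without it. No gene of these lists passed for PB in any preparation, and none of the 9 named rRNA rows, such as Rn18s, is in the count table.

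Targeted TempO-Seq tables, in which each value counts ligated probe pairs designed to a gene, gave no second reading of the loci. In AML12 cells, a mouse hepatocyte line, all 4 were listed at 0 in each of 12 libraries, and 21791 of 24540 rows of that table were at 0 throughout. Lars2 was the only 1 of the 4 with a row for rat liver and rat lung, at 0 in all 18 libraries of each. Most rows there were at 0 throughout, 26018 of 28756 for rat liver and 25909 of 28760 for rat lung.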

How the data were processed

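Total RNA of mouse liver was sequenced in 48 libraries. The authors trimmed paired 50-base reads, aligned them to GRCm38/mm10 with STAR 2.5.3a and deposited estimated counts from expectation maximization in Partek on RefSeq transcripts, summed by gene. Reads that match several loci can be divided between them or dropped in that step. The deposited log2 CPM values of the authors rest on total reads, recovered here as the ratio of counts of at least 1000 to CPM. The deposited TempO-Seq counts were read for the 4 loci alone.

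Counts were rounded and fitted with edgeR 4.0.16 in R 4.3.3 (quasi-likelihood test, 8 group means, library size the total over kept genes). Genes with a geometric mean above 1 count (offset 0.0001) were kept. Calls needed a Benjamini-Hochberg adjusted p under 0.05 over all 13370 genes and a fold change of at least 2. DESeq2 1.42.0, limma 3.58.1, other library sizes, other filters and subsets of libraries were alternatives. The fit was tested on simulated counts. Likeness and correlations used log2(CPM + 1) or log2 CPM, and permutation tests used Python 3.11.15 with scipy 1.17.1. Sequences came from GENCODE M21 transcripts and RefSeq tables on GRCm38. The sequence of Mir6236 is not reported here.

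The loci and gene lists were chosen with earlier results of these data known. Named genes were the 4 loci, up to 3 called genes in each direction per list, the 5 rows nearest to Rn45s on each of 2 measures, and Cyp2b10. Same-numbered libraries come from the same mouse, so the mouse was tried as a block. Over 7953 genes of at least 10 CPM, deviations from group means correlated between preparations of 1 mouse with r from 0.47 to 0.88, and the median was −0.11 to −0.15 for different mice. No library was a copy of another (lowest chi-square per degree of freedom 6.65 over 120 pairs within groups). In the smallest library, of 4953000 counts to the nearest 1000, 1 CPM is about 5 counts.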

Additional observations from a re-analysis of the deposited data

Results flagged for a closer look

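Of 32 groups of 6 libraries (4 loci in 8 groups), 5 held a library whose gap to the nearest other exceeded Dixon's critical value for the share of the group's range. Chance flags about 1 in 20 groups. In FR PB, mouse 75C had the highest values of 3 loci, with 13055.5 CPM of Rn45s (the next library had 6384), 265.5 CPM of Lars2 (next 115) and 28.9 CPM of Mir6236 (next 8.48), while its Gm20594, at 2954 CPM, lay inside the range of the other libraries. In no block preparation was the same mouse the highest of its PB group for any of these 3 loci, and its Lars2 was the lowest of the group in FR>FFPE (588 CPM) and in FFPE (2239 CPM).

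In Con mouse 21C, Lars2 held 1044 CPM in FR>FFPE (next 665) and Gm20594 held 10669 CPM in FR>OH (next 7684). The FR>FFPE library of that mouse had the lowest total of its group, 5535000 counts to the nearest 1000, and 31.7% of its reads on genes. Its Gm20594 in FR>FFPE, at 4782 CPM, was the lowest of that group.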

How the results depend on the processing

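Of 292 recomputed log2 changes of the loci against FR, 283 stayed within the spread between mice and 9 moved beyond it, and none changed sign. From FR to FFPE, total reads as the library size gave 3.01 for Rn45s, 3.72 for Lars2 and 1.18 for Gm20594, and limma on the deposited log2 CPM gave 3.06, 3.84 and 1.18. For Mir6236 this change ran from 4.44 to 5.56 over the settings that kept all libraries. It counted as within the spread between mice because that spread was wide for Mir6236, not because the divisor left it unchanged. From FR to FR>OH, Gm20594 was at 0.54 with total reads and 0.53 with limma. Within L number 2, FFPE PB against FR PB gave 2.02 for Gm20594 (2.43 over all libraries). With the mouse as a replicate block, the changes from FR to FFPE were 4.01 for Rn45s, 4.74 for Lars2, 5.42 for Mir6236 and 2.13 for Gm20594, and the block changed no call of the loci. Leaving out each mouse in turn, chosen after seeing the data like the fits without FR PB 75C and the order of libraries on the read scale, gave 3.88 to 4.12 for Rn45s, 4.58 to 4.95 for Lars2, 5.23 to 5.93 for Mir6236 and 2.09 to 2.18 for Gm20594.

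No locus passed for PB or for the interaction in any of 171 recomputed counts; 66 of 700 single values had the opposite sign to an uncalled main value, and the lowest adjusted p was 0.0539 (Mir6236 in FR without 75C). FFPE against FR gave 3697 called genes with total reads and 4016 with limma (1995 otherwise). The 6 pairs correlated by r became 7 on deviations from treatment means and 4 on the read scale. By rho, 5 pairs became 2 on deviations and 2 on the read scale. In FR>FFPE no L number held both treatments. The planned fits of Lars2 by targeted probe were not run, since every count was 0. Depth limits Mir6236 in FR most, where 1 library held 17 counts.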
